A study of Mus musculus with 6 samples.

Results

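Expression of 10 genes with antimicrobial or oxidase products of the colon epithelium (Reg3b, Reg3g, Lcn2, Duox2, Duoxa2, Nox1, Saa1, Saa3, Ang4 and Lypd8) was examined in mouse colitis-associated colorectal tumors. The genes were taken by name from a table of 54532 genes, with earlier results of these data known, and all 10 were found and measured. RNA-seq had been performed on whole AOM+DSS-L tumors, 3 Tmem173fl/fl and 3 Tmem173iΔmye. In both groups, both alleles of Tmem173, the gene of the DNA-sensing adaptor STING, were flanked by loxP sites on the C57BL/6N background. Tumors had been induced with azoxymethane (AOM), a carcinogen, and 3 cycles of dextran sulfate sodium (DSS), which injures the colon epithelium. Both groups also received tamoxifen (TAM) once the cycles were over. The Tmem173iΔmye mice alone carried Lyz2-CreERT2, a recombinase that TAM switches on in myeloid cells, and so the deletion was aimed at myeloid cells and not at the epithelium in which most of these 10 genes are known to be expressed.

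The colon epithelium keeps bacteria at a distance with mucus, secreted proteins and oxidants. Reg3b and Reg3g encode C-type lectins that bind bacterial cell walls, Lcn2 a protein that withholds iron by binding bacterial siderophores, Ang4 a bactericidal ribonuclease and Lypd8 a protein that binds flagellated bacteria. Duox2, with its maturation factor Duoxa2, releases hydrogen peroxide at the cell surface, and Nox1 is a related oxidase that makes superoxide. Saa1 and Saa3 encode acute-phase serum amyloid A proteins, which are also made locally in an inflamed gut. Many of these genes are known to be induced in epithelial cells by cytokines such as those encoded by Il22, Il17a and Il1b.

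Between 15329810 and 16533732 reads were counted on genes per tumor. Levels are given as deposited FPKM, a count per length of gene and size of library, and so they can be set side by side between genes. Fold changes are log2 values from the counts (edgeR's quasi-likelihood test), Tmem173iΔmye over Tmem173fl/fl, and adjusted p-values are over the 16426 genes whose mean FPKM was 0.5 or higher. The study's limits are a log2 fold change of 1 or more in either direction with an unadjusted p under 0.05. Tmem173 itself had 1748, 2911 and 1705 counts in Tmem173fl/fl tumors 1, 2 and 3 and 2291, 2245 and 1953 in Tmem173iΔmye tumors 1, 2 and 3, so whole tumor RNA did not tell the genotypes apart. All 12 epithelial markers on the list, such as Epcam and Vil1, were expressed, and their summed level was 13760 to 16360 CPM in Tmem173fl/fl and 15350 to 17650 CPM in Tmem173iΔmye tumors. Genes of the Y chromosome had 3547 counts in Tmem173fl/fl tumor 1 and 2875 and 2655 counts in Tmem173iΔmye tumors 1 and 2, and at most 2 counts in the other tumors. The groups were therefore not balanced for Y-linked reads, and the difference of each of the 10 genes is given within tumors with and without such reads. The sources describe the tumors of a group as randomly selected samples, and p-values measure the spread between these samples. In whole tumor RNA, fewer cells of a type and less RNA per cell cannot be told apart.

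All 10 genes passed the filter, and the groups overlapped for each of them. No gene of the 10 had an adjusted p under 0.05 in edgeR, as was so for 0% of the genes tested. One gene, Saa3, passed the study's limits, against 349 (2.12%) of all genes tested. No gene of the 10 had groups that did not overlap, against 12.5% of all genes tested. The fold change of the 10 genes had a median of 0.16, against -0.0042 over all genes tested. It was above 0 for 8 genes and below 0 for 2, against 8111 above and 8315 below of all 16426 genes tested. The split of the 10 genes was 4 above and 6 below with Y-linked reads as covariate, and 5 and 5 without Tmem173iΔmye tumor 1. It was 10 and 0 without Tmem173fl/fl tumor 1, the only Tmem173fl/fl tumor with Y-linked reads.

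**Figure D1:**
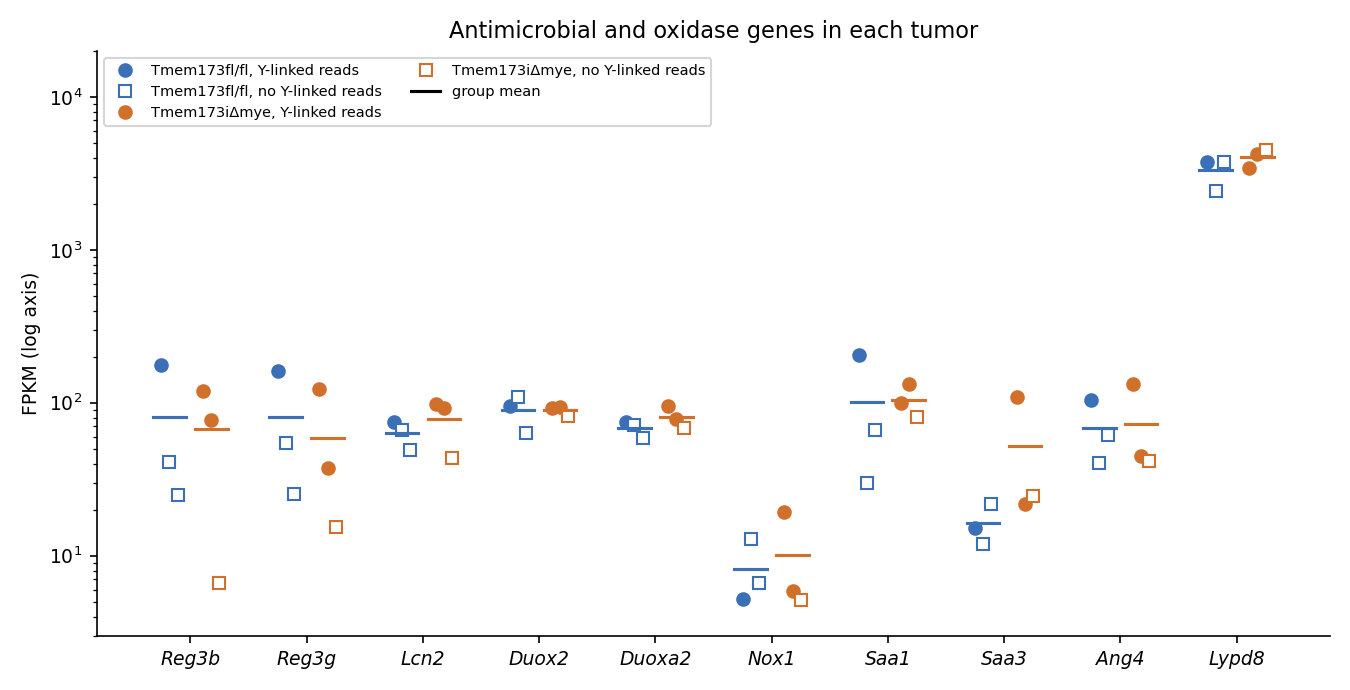
FPKM (log axis) of each gene in the 3 Tmem173fl/fl (blue) and 3 Tmem173iΔmye (orange) tumors, in order of replicate from left to right; bars are group means, filled circles are tumors with Y-linked reads and open squares those without. Lypd8 lies between 2426 and 4474 FPKM, far above the other 9 genes, and the groups overlap for all 10.

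Reg3b and Reg3g are related genes of one cluster on chromosome 6. In GRCm38, Reg3b lies at chr6:78370657-78373466 on the plus strand and Reg3g at chr6:78466269-78468872 on the minus strand. Because they were the most variable of the genes, the sequence before their start sites is shown, from RefSeq on GRCm38.p6. The Reg3b stretch is chr6:78370707-78370860 on the plus strand and the Reg3g stretch chr6:78468875-78469124 on the minus strand. RefSeq starts Reg3b at chr6:78370885, further in than the span given above, so the Reg3b stretch lies inside that span. The Reg3g stretch lies outside the span of Reg3g. Of each 250-base window before a start site, the longest stretch outside annotated untranslated regions is given, and capitals mark matches to a motif.
Reg3b: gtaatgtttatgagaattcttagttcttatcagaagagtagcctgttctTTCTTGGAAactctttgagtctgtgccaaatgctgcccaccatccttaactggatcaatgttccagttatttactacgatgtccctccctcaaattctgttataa
Reg3g: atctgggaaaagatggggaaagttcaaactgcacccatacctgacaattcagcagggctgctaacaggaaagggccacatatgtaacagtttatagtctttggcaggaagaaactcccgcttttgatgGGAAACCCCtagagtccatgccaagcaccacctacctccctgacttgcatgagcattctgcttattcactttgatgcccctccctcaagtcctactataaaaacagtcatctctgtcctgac
The Reg3b match, 129 bases before the start site, is STAT-type (TTCNNNGAA), a pattern found in 7.02% of 32851 windows of this length. The Reg3g match, 122 bases before the start site, is NF-kB-type (GGNNTTTCC, here on the opposite strand), found in 4.93% of the windows. Motifs were searched on both strands, and a match is a description of the letters alone. The full windows of the pair were identical at 173 of 253 aligned positions (68.4%).

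Reg3b was measured at 176, 40.7 and 24.9 FPKM in Tmem173fl/fl tumors 1, 2 and 3, and at 119.6, 76.8 and 6.65 FPKM in Tmem173iΔmye tumors 1, 2 and 3. The level therefore spanned 26.4-fold, and Tmem173fl/fl tumor 1 was the highest and Tmem173iΔmye tumor 3 the lowest. Its scatter within groups, an SD of 1.84 on the log2 scale, was larger than that of 99.84% of the genes tested. The means were 67.7 ± 57.0 FPKM (SD, n = 3) in Tmem173iΔmye and 80.5 ± 83.0 FPKM (SD, n = 3) in Tmem173fl/fl tumors. The log2 fold change was -0.26 (SE 0.98, adjusted p = 0.953 in edgeR), with a 95% confidence interval from -2.53 to 2.02, so changes of several fold in either direction lie within the error.

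Reg3g followed the same order of tumors at its ends. It was measured at 160.3, 54.8 and 25.2 FPKM in Tmem173fl/fl tumors 1, 2 and 3, and at 123.6, 37.5 and 15.5 FPKM in Tmem173iΔmye tumors 1, 2 and 3. The log2 fold change was -0.45 (SE 0.83, adjusted p = 0.898 in edgeR), with a 95% confidence interval from -2.38 to 1.47. The pair did not keep one ratio. Reg3g over Reg3b, as FPKM, was 0.911, 1.35 and 1.01 in Tmem173fl/fl tumors and 1.03, 0.488 and 2.33 in Tmem173iΔmye tumors. Tmem173iΔmye tumor 2 thus held more Reg3b than Reg3g, and tumor 3, where both were at their lowest, the reverse. Of all genes tested, Reg3g was the one whose pattern over the 6 tumors was nearest to that of Reg3b, with a root mean square difference of 0.634 on the log2 scale. From the side of Reg3g, Gm1821 was nearest (0.392) and Reg3b ranked 15 of 16425.

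Levels were also compared between tumors with and without Y-linked reads. Reg3b was higher in every tumor with Y-linked reads than in every tumor without, as were Lcn2, Duoxa2 and Saa1 (4 of the 10 genes, against 17.6% of all genes tested, in either direction), whereas Reg3g overlapped. Among tumors with these reads, Reg3b was at 204 CPM in the Tmem173fl/fl tumor and at a mean of 112.7 CPM in the 2 Tmem173iΔmye tumors (log2 ratio -0.86). Among tumors without them, it was at a mean of 37.5 CPM in the 2 Tmem173fl/fl tumors and at 7.64 CPM in the Tmem173iΔmye tumor (log2 ratio -2.29). Reg3b was thus lower in Tmem173iΔmye tumors on both sides of this division. The share of all genes with the same direction on both sides was not computed. Reg3g was at 344 against 171 CPM with Y-linked reads (log2 ratio -1.01) and at 84.5 against 32.9 CPM without them (-1.36). With Y-linked reads as a covariate in edgeR, the log2 fold change of Reg3b was -1.53 (SE 0.39, adjusted p = 1) and that of Reg3g -1.18 (SE 0.49, adjusted p = 1). Both passed the study's limits in that fit, as did 211 (1.28%) of all genes tested, and they were the only 2 of the 10 genes that did. These 2 values lean on single tumors, since each side of the division holds 1 tumor of a genotype. Without Tmem173fl/fl tumor 1, the fold changes in the fit without the covariate were 1.05 for Reg3b and 0.57 for Reg3g. That tumor was the only Tmem173fl/fl tumor with Y-linked reads, so leaving it out made the groups less balanced for such reads. These fold changes are therefore no check on those of the covariate fit.

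**Figure D2:**
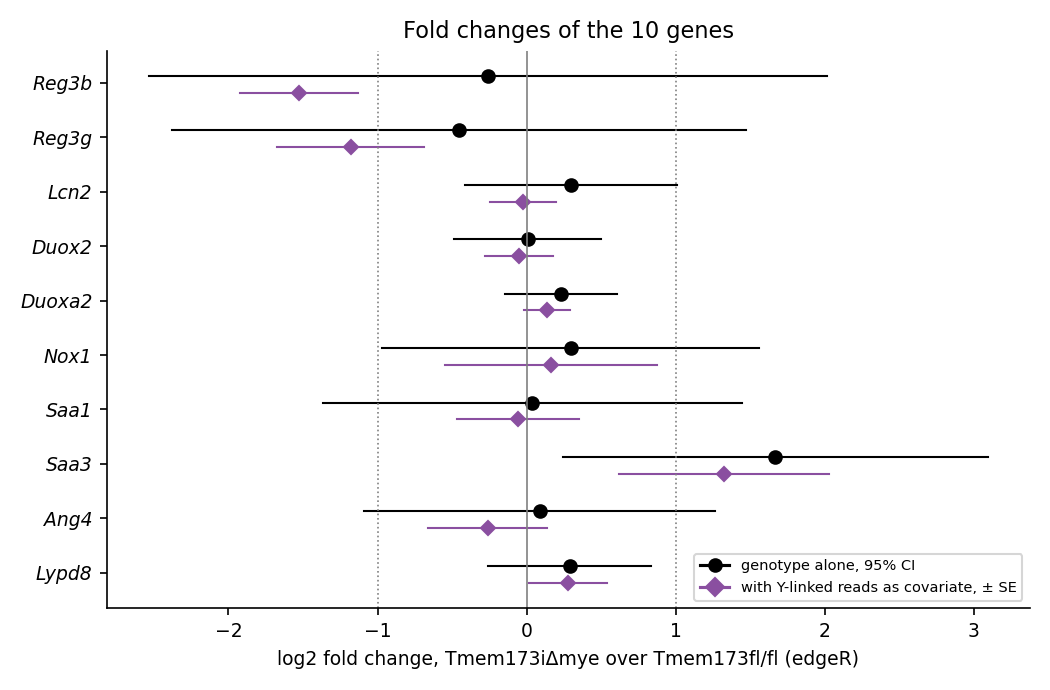
Log2 fold change of each gene, Tmem173iΔmye over Tmem173fl/fl, from edgeR with genotype alone (black circles, lines are 95% confidence intervals) and with Y-linked reads as covariate (purple diamonds, lines are ± SE); dotted lines mark log2 fold changes of -1 and 1. With genotype alone, the interval of Saa3 (0.24 to 3.10) leaves out 0, and with the covariate Reg3b (-1.53) and Reg3g (-1.18) lie below -1.

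Saa1 and Saa3 stand close together on chromosome 7, Saa1 at chr7:46740497-46742980 and Saa3 at chr7:46711998-46715700, both on the minus strand of GRCm38. Their patterns over the tumors were different, and the sequences before their start sites are shown for that reason, on the minus strand at chr7:46742981-46743230 for Saa1 and chr7:46715701-46715926 for Saa3 (RefSeq, GRCm38.p6), with motif matches in capitals.
Saa1: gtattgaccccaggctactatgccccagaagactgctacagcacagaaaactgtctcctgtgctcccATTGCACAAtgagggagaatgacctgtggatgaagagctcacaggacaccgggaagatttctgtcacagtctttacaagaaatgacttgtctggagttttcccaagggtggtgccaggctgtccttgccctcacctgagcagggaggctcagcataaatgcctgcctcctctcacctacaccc
Saa3: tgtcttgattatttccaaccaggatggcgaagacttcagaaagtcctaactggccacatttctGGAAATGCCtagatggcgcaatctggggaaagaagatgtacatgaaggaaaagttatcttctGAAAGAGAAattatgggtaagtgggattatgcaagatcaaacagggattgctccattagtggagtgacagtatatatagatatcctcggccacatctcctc
The Saa1 match is C/EBP-type (TTNNGNAAT, on the opposite strand), 183 bases before the start site, a pattern found in 10.2% of windows. The Saa3 matches are NF-kB-type (opposite strand, 187 bases before the start site) and IRF-type (GAAANNGAA, 125 bases before it), and the latter pattern is found in 7.13% of windows. The aligned windows were identical at 133 of 276 positions (48.2%).

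Saa3, the serum amyloid A gene that is known to be made by macrophages and adipocytes as well as by inflamed epithelium, was the one gene of the 10 past the study's limits. It was measured at 15.2, 12.0 and 21.7 FPKM in Tmem173fl/fl tumors 1, 2 and 3, and at 109.8, 21.6 and 24.7 FPKM in Tmem173iΔmye tumors 1, 2 and 3. Tmem173iΔmye tumor 1 stood alone, and its other tumors lay at or just above the highest Tmem173fl/fl tumor, so the groups overlapped. The means were 52.0 ± 50.1 FPKM (SD, n = 3) in Tmem173iΔmye and 16.3 ± 4.94 FPKM (SD, n = 3) in Tmem173fl/fl tumors. For Saa3, the log2 fold change was 1.67 (SE 0.61), with a 95% confidence interval from 0.24 to 3.10 and an adjusted p of 0.742 in edgeR. Without Tmem173iΔmye tumor 1 it was 0.50, and it no longer passed the limits. Every Tmem173iΔmye tumor was above every Tmem173fl/fl tumor within those with Y-linked reads (a mean of 172 against 40.2 CPM) and within those without them (64.6 against a mean of 44.0 CPM). Each side holds a single tumor of 1 genotype, and the share of all genes with such an order was not computed. With the covariate, the log2 fold change of Saa3 was 1.32 (SE 0.71, adjusted p = 1 in edgeR).

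Markers of other cells that can make Saa3 were read beside it. Among the adipocyte markers, Adipoq, Plin1 and Lep had 0 counts in all 6 tumors, and the summed level of the list was 60.2 to 78.3 CPM in Tmem173fl/fl and 70.6 to 83.1 CPM in Tmem173iΔmye tumors. Pparg, at 437 to 797 counts per tumor, was the largest part of that sum, followed by Lpl at 195 to 434 counts. The sum thus mainly reflects Pparg and Lpl. The macrophage markers summed to 495.8 to 774.3 CPM and 467 to 779.6 CPM, with 7 of 11 tested genes above 0 and 0 past the limits. The neutrophil markers summed to 108.7 to 245.1 CPM and 142.5 to 438.2 CPM, with 9 of 11 tested genes above 0, 0 past the limits and Elane at 0 in all tumors. Without Tmem173iΔmye tumor 1, 2 of the neutrophil genes were above 0 and 9 below, with a median of -0.38 in place of 0.53. Tmem173iΔmye tumor 1, the highest in Saa3, was also the highest in the summed neutrophil markers, where S100a8 and S100a9 had 1861 and 2181 counts. Of the tested neutrophil genes, Ly6g, Mmp9 and Il1r2 were not highest in that tumor. Ly6g had 993 counts in it, against 1573 in Tmem173fl/fl tumor 1. With all 6 tumors, Ly6g (log2 fold change -0.34, SE 0.32) and Il1r2 (-0.11, SE 0.55) were the 2 tested neutrophil genes below 0. In the macrophage sum, Tmem173iΔmye tumor 1 was level with Tmem173fl/fl tumor 1 (779.6 and 774.3 CPM), but the single genes differed between these tumors. Lyz2 (240.6 against 306.5 FPKM) and Mertk (2.77 against 4.15 FPKM) were lower in Tmem173iΔmye tumor 1. The other tested macrophage markers were higher there, such as C1qa (109.5 against 76.0 FPKM). By lowest p, S100a9 (log2 fold change 1.30, SE 0.82), Csf3r (0.74, SE 0.48) and Trem1 (0.56, SE 0.46) led the neutrophil list. The same order gave C1qa (0.46, SE 0.22), Fcgr1 (0.41, SE 0.33) and C1qb (0.33, SE 0.28) for macrophages and Pparg (0.29, SE 0.20), Lpl (0.21, SE 0.31) and Cidec (0.088, SE 0.42) for adipocytes, and the groups overlapped for all 9. The part of these cells in the Saa3 difference was not tested.

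Saa1 had its extremes elsewhere. It was measured at 206.3, 30.0 and 66.7 FPKM in Tmem173fl/fl tumors 1, 2 and 3, and at 99.9, 133.2 and 80.1 FPKM in Tmem173iΔmye tumors 1, 2 and 3. Both the highest and the lowest tumor were thus Tmem173fl/fl, and the Tmem173iΔmye tumors lay between them. Between the groups, its log2 fold change was 0.039 (SE 0.61, adjusted p = 0.990 in edgeR), with a 95% confidence interval from -1.37 to 1.45. Within tumors with Y-linked reads, Saa1 was lower in Tmem173iΔmye (290.4 against 519 CPM), and within those without them it was higher (199.7 against 120.3 CPM). Without Tmem173fl/fl tumor 1, the only Tmem173fl/fl tumor with Y-linked reads, its log2 fold change was 1.11 (adjusted p = 0.474 in edgeR). Saa1 then passed the study's limits. The ratio of Saa1 to Saa3, as FPKM, was 13.6, 2.50 and 3.08 in Tmem173fl/fl and 0.910, 6.16 and 3.25 in Tmem173iΔmye tumors, so Saa3 exceeded Saa1 in Tmem173iΔmye tumor 1 only. Reads of Saa1 can be shared with its near-identical copy Saa2, which had 1 to 15 counts per tumor.

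Lcn2, at chr2:32384633-32388252 on the minus strand, was measured at 74.5, 66.7 and 49.0 FPKM in Tmem173fl/fl tumors 1, 2 and 3, and at 97.7, 92.9 and 43.8 FPKM in Tmem173iΔmye tumors 1, 2 and 3. The highest and the lowest tumor were both Tmem173iΔmye, 2.23-fold apart, a much narrower range than that of the lectins. On the log2 scale, the fold change was 0.30 (SE 0.31, adjusted p = 0.814 in edgeR), with a 95% confidence interval from -0.41 to 1.01. Lcn2 is known from neutrophil granules as well as from epithelium. The sign of its difference was not the same within tumors with Y-linked reads (log2 ratio 0.34) and without them (-0.40), and with the covariate the log2 fold change was -0.027.

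The oxidase pair had the narrowest ranges over the tumors. Duox2 (chr2:122279247-122298165, minus strand) and Duoxa2 (chr2:122298900-122302885, plus strand) stand head to head, and their RefSeq start sites are 673 bases apart. Duox2 was measured at 95.1, 109.4 and 63.0 FPKM in Tmem173fl/fl tumors 1, 2 and 3, and at 92.6, 93.9 and 82.3 FPKM in Tmem173iΔmye tumors 1, 2 and 3. All Tmem173iΔmye tumors lay inside the Tmem173fl/fl range. Between the groups, the log2 fold change of Duox2 was 0.0066 (SE 0.21, adjusted p = 0.998 in edgeR), with a 95% confidence interval from -0.49 to 0.50. Duoxa2, which Duox2 needs to leave the endoplasmic reticulum, was measured at 74.7, 72.0 and 58.5 FPKM in Tmem173fl/fl tumors 1, 2 and 3, and at 94.5, 78.3 and 68.5 FPKM in Tmem173iΔmye tumors 1, 2 and 3. Its log2 fold change was 0.23 (SE 0.16, adjusted p = 0.757 in edgeR), with a 95% confidence interval from -0.14 to 0.61, the narrowest of the 10 genes. Within tumors with Y-linked reads the log2 ratio was -0.043 for Duox2 and 0.20 for Duoxa2, and within those without them -0.059 and 0.076. For both genes the interval leaves out a log2 change of 1 in either direction.

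The ratio of Duox2 to Duoxa2, as FPKM, was 1.27, 1.52 and 1.08 in Tmem173fl/fl and 0.980, 1.20 and 1.20 in Tmem173iΔmye tumors, so the pair differed by at most 1.52-fold in every tumor. Many other genes were as near in pattern, since Duoxa2 ranked 1076 of 16425 genes by its distance from Duox2. Duoxa2 shares 695 bases with Duoxa1 on the opposite strand, a gene of 24 to 85 counts per tumor, and the strand setting of the counting is not given in the sources used here.

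Nox1, on the minus strand at chrX:134086421-134221956, was the least expressed of the 10 genes and ranked 6083 of all genes by mean FPKM. It was measured at 5.25, 12.8 and 6.64 FPKM in Tmem173fl/fl tumors 1, 2 and 3, and at 19.3, 5.86 and 5.11 FPKM in Tmem173iΔmye tumors 1, 2 and 3. In each group 1 tumor stood above the other tumors, tumor 2 in Tmem173fl/fl and tumor 1 in Tmem173iΔmye. The log2 fold change was 0.30 (SE 0.55, adjusted p = 0.899 in edgeR), with a 95% confidence interval from -0.97 to 1.56, and without Tmem173iΔmye tumor 1 it was -0.58. Within tumors with Y-linked reads the log2 ratio was 1.25 and within those without them -0.92. The span of Nox1 overlaps Cstf2 by 399 bases on the opposite strand, and Cstf2 had 1085 to 1741 counts per tumor. It also overlaps Xkrx by 13034 bases on the same strand (5 to 27 counts) and Arl13a by 20528 bases on the opposite strand (0 to 4 counts).

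Ang4, at chr14:51763878-51773590 on the minus strand, was measured at 103.5, 40.5 and 61.1 FPKM in Tmem173fl/fl tumors 1, 2 and 3, and at 133, 44.6 and 41.5 FPKM in Tmem173iΔmye tumors 1, 2 and 3. Tumor 1 was the highest of each group. Its log2 fold change was 0.089 (SE 0.51, adjusted p = 0.971 in edgeR), with a 95% confidence interval from -1.09 to 1.27. Within tumors with Y-linked reads the log2 ratio was -0.24, within those without them -0.29, and the fold change with the covariate was -0.26. The gene nearest to Ang4 in pattern was Spdef, a transcription factor of goblet cells, with a root mean square difference of 0.171 on the log2 scale. Spdef was at 17.5, 7.95 and 10.6 FPKM in Tmem173fl/fl and at 22.6, 7.62 and 9.75 FPKM in Tmem173iΔmye tumors, so it too was highest in tumor 1 of each group. The 12 goblet cell markers, which include Spdef, had a median log2 fold change of 0.011, with 7 above 0, 5 below 0 and 0 past the limits. The split was 10 above and 2 below without Tmem173fl/fl tumor 1, 3 and 9 without Tmem173fl/fl tumor 2, 4 and 8 without Tmem173fl/fl tumor 3, and 2 and 10 without Tmem173iΔmye tumor 1. It was 3 above and 9 below with the covariate and 4 above and 8 below with library sizes without the 20 highest genes. Those of lowest p were Sytl2 (log2 fold change -0.33, SE 0.17), Fer1l6 (-0.67, SE 0.52) and Agr2 (0.71, SE 0.60), and their groups overlapped. Ang4 belongs to a family of near copies, and its reads can be shared with them.

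Lypd8, at chr11:58379043-58390728 on the plus strand, was the fifth most abundant gene of the whole table by mean FPKM. It alone took 0.300% to 0.581% of all counts of a tumor. Its levels were 3746, 2426 and 3744 FPKM in Tmem173fl/fl tumors 1, 2 and 3, and 3437, 4225 and 4474 FPKM in Tmem173iΔmye tumors 1, 2 and 3. Tmem173fl/fl tumor 2 stood below the rest, and the other 5 tumors lay close together. The log2 fold change was 0.29 (SE 0.23, adjusted p = 0.771 in edgeR), with a 95% confidence interval from -0.26 to 0.83, so a log2 change of 1 lies outside it. Within tumors with Y-linked reads the log2 ratio was 0.018, and within those without them it was 0.54.

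**Figure D3:**
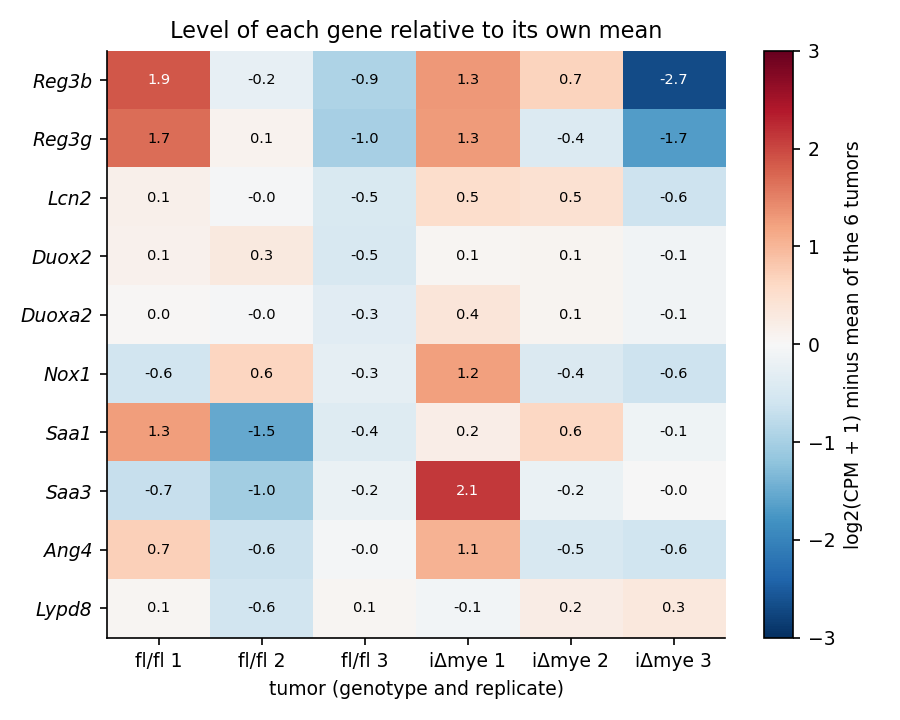
Each gene's log2(CPM + 1) minus its own mean over the 6 tumors, by tumor (columns, genotype and replicate) and gene (rows); red is above and blue below the mean. The rows of Reg3b (from -2.70 to 1.87) and Saa3 (from -1.04 to 2.12) hold the strongest colors, and the rows of Duox2, Duoxa2 and Lypd8 are pale.

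The 10 genes did not share one order of tumors. Tmem173iΔmye tumor 1 held the highest level of 5 genes (Lcn2, Duoxa2, Nox1, Saa3 and Ang4), and Tmem173fl/fl tumor 1 that of 3 (Reg3b, Reg3g and Saa1). Tmem173fl/fl tumor 2 held the lowest level of 4 genes (Saa1, Saa3, Ang4 and Lypd8), as did Tmem173iΔmye tumor 3 (Reg3b, Reg3g, Lcn2 and Nox1). By scatter within groups, 7 genes were above 89.6% or more of the genes tested, whereas Duox2, Duoxa2 and Lypd8, with SDs of 0.21 to 0.30 on the log2 scale, were above 43.5% to 66.7%. Their intervals were correspondingly narrow. For the other genes, the nearest in pattern of all genes tested were BC028528 to Lcn2, Angptl2 to Duox2, Rp9 to Duoxa2, Gm9800 to Nox1, Tbc1d10c to Saa1 and Mterf1b to Lypd8, at 0.0152 to 0.180 on the log2 scale. For Lcn2, Nox1, Saa1 and Ang4, as for the lectins, the 95% confidence interval holds both 0 and a change of 1 on the log2 scale.

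**Figure D4:**
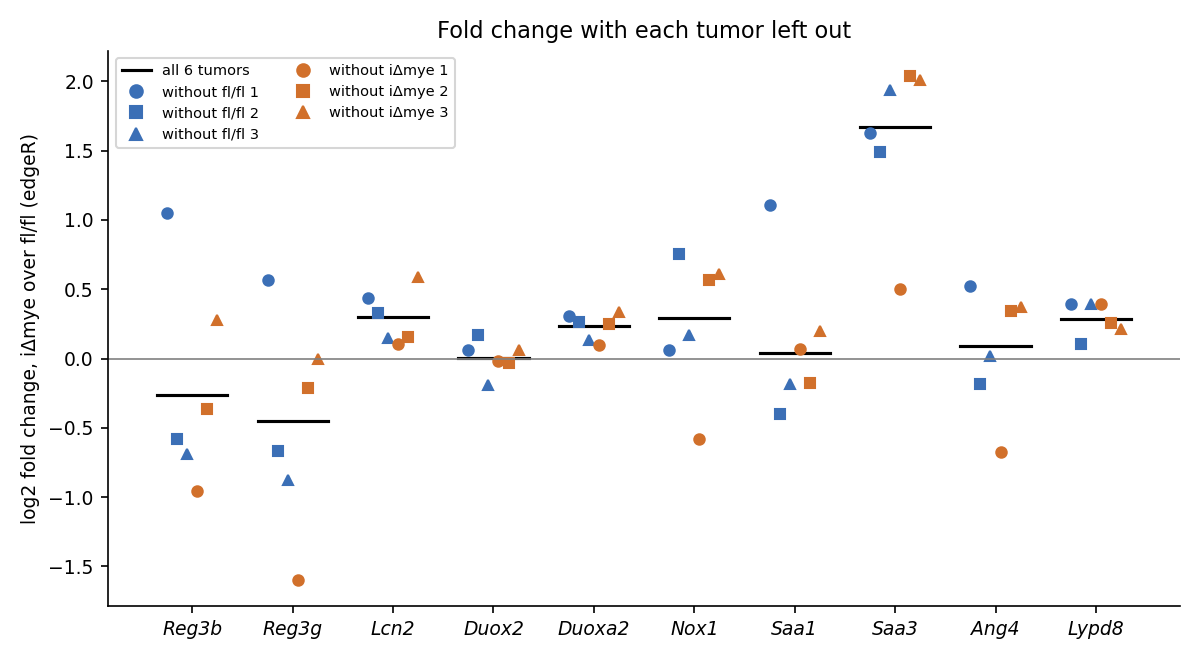
Log2 fold change of each gene from edgeR with each tumor left out in turn (blue, a Tmem173fl/fl tumor left out; orange, a Tmem173iΔmye tumor left out; circle, square and triangle for tumors 1, 2 and 3) and with all 6 tumors (black bar). Saa3 drops from 1.67 to 0.50 without Tmem173iΔmye tumor 1, Reg3b runs from -0.95 to 1.05, and Lypd8 (0.10 to 0.39) and Duoxa2 (0.10 to 0.34) move little.

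Other genes of the same defences were read from lists made beside the 10 genes. Of 22 other secreted antimicrobial genes tested, 14 were above 0 and 8 below, the median log2 fold change was 0.20, and 0 passed the limits. The list also holds Nos2, an intracellular enzyme, Pigr, a transport receptor, and Mmp7, a protease (log2 fold changes 0.68, 0.15 and 0.10). It is thus not of secreted antimicrobial proteins alone, and S100a8 and S100a9 are in the neutrophil list as well. The lowest unadjusted p-values were those of Pglyrp1, a peptidoglycan-binding protein, Ang, a ribonuclease related to Ang4, and Retnlb, a goblet cell product that kills Gram-negative bacteria. Pglyrp1 was at 366, 253 and 265 FPKM in Tmem173fl/fl and at 555, 537 and 324 FPKM in Tmem173iΔmye tumors (log2 fold change 0.67, SE 0.25). Retnlb was at 5.89, 0.960 and 1.03 FPKM in Tmem173fl/fl and at 38.1, 4.13 and 2.91 FPKM in Tmem173iΔmye tumors (2.50, SE 1.13), so its value came mainly from Tmem173iΔmye tumor 1. The log2 fold change of Ang was 0.94 (SE 0.39), and its groups did not overlap by narrow gaps of 5.28 against 5.30 FPKM. The adjusted p was 0.742 in edgeR for each of these. Without Tmem173iΔmye tumor 1, 9 genes of the list were above 0 and 13 below, with a median of -0.38.

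Of 11 other NADPH oxidase genes tested, 9 were above 0 and 2 below (median 0.073), and 0 passed the limits. The split turned to 3 above and 8 below without Tmem173iΔmye tumor 1 (median -0.038) and to 5 above and 6 below with the covariate (-0.020). Noxo1, which organises the Nox1 complex, was at 1.42 to 1.58 FPKM in Tmem173fl/fl and 1.05 to 1.30 FPKM in Tmem173iΔmye tumors, without overlap (log2 fold change -0.33, SE 0.25, adjusted p = 0.767 in edgeR). Cyba, the membrane partner of Nox1, was at 0.37 (SE 0.19) on the same scale, and Duoxa1, the maturation factor of Duox1, at 0.60 (SE 0.42). All 16 genes of the hydrogen peroxide removal list, such as Prdx1, were above 0, with a median of 0.23, whereas 8111 of all 16426 genes were. The list also holds Sod1, Sod2 and Sod3, superoxide dismutases that form hydrogen peroxide from superoxide, so it is not of removal genes alone. None of the 16 passed the limits, 1 did so as higher without Tmem173fl/fl tumor 1, and 14 to 16 were above 0 with a tumor left out. Sod3, an extracellular superoxide dismutase, was at 6.65 to 12.0 FPKM in Tmem173fl/fl and 12.5 to 18.3 FPKM in Tmem173iΔmye tumors (log2 fold change 0.71, SE 0.24, adjusted p = 0.742 in edgeR). The values were 0.44 (SE 0.21) for Prdx1 and 0.43 (SE 0.24) for Sod1, and their groups overlapped.

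A list of cytokines, receptors and signalling genes that act on such genes had 17 of 25 tested genes above 0, 8 below and a median of 0.15. Besides cytokines and receptors, it holds the adaptor gene Myd88, the inhibitor gene Socs3 and the transcription regulator genes Stat3, Nfkbiz, Cebpb and Cebpd. All of these were above 0, so the split is not of cytokines and receptors alone. Only Il17a, Il1b and Osm passed the limits, each higher in Tmem173iΔmye tumors without overlap between the groups, and each with an adjusted p of 0.742 in edgeR. Il17a, a cytokine of Th17 cells and related lymphocytes, had 9, 9 and 8 counts in Tmem173fl/fl and 61, 56 and 10 counts in Tmem173iΔmye tumors (log2 fold change 2.25, SE 0.67). Il1b, a myeloid cytokine, was at 10.7, 9.81 and 8.66 FPKM against 57.5, 17.0 and 11.7 FPKM (1.56, SE 0.54). Osm was at 1.04, 0.588 and 0.420 FPKM against 4.07, 1.29 and 1.20 FPKM (1.67, SE 0.59). Tmem173iΔmye tumor 1 was the highest for all 3, and tumor 3 lay close to the Tmem173fl/fl tumors for Il17a and Il1b. The number past the limits as higher was 1 with Y-linked reads as covariate, with limma on log2(FPKM + 1), and without Tmem173iΔmye tumor 1, Tmem173fl/fl tumor 2 or Tmem173fl/fl tumor 3, and 2 with limma on log2(FPKM + 0.1). Without Tmem173fl/fl tumor 1, 1 gene passed as lower beside 3 as higher. Il22 had 0 to 5 counts per tumor, too few for a fold change, and its receptor gene Il22ra1 had 496 to 643 counts.

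Genes induced by interferon, which were not among the 10, were read as well. All 12 were above 0, their median log2 fold change was 1.74, and 9 passed the limits as higher in Tmem173iΔmye tumors. Ifit3 (2.13, SE 0.47), Usp18 (1.01, SE 0.26), Oasl2 (1.54, SE 0.47) and Ifit1 (1.66, SE 0.56) did so without overlap between the groups. Cxcl9 (3.01, SE 1.06), Cxcl10 (2.50, SE 0.91), Gbp3 (1.83, SE 0.72), Isg15 (2.06, SE 0.82) and Gbp2 (2.03, SE 0.83) overlapped. The adjusted p was 0.742 in edgeR for each, and without Tmem173iΔmye tumor 1, where the list summed to 1848 CPM, the median was 0.56 and 1 gene passed the limits. The number past the limits was 3 without Tmem173fl/fl tumor 2, 4 without Tmem173fl/fl tumor 3, 4 with Y-linked reads as covariate and 4 under either limma fit. All 12 stayed above 0 in each of these fits. The gene nearest to Saa3 in pattern was Ccl5, a chemokine that attracts T cells, with a root mean square difference of 0.167 on the log2 scale. Ccl5 had 17, 5 and 30 counts in Tmem173fl/fl and 218, 38 and 29 counts in Tmem173iΔmye tumors.

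**Figure D5:**
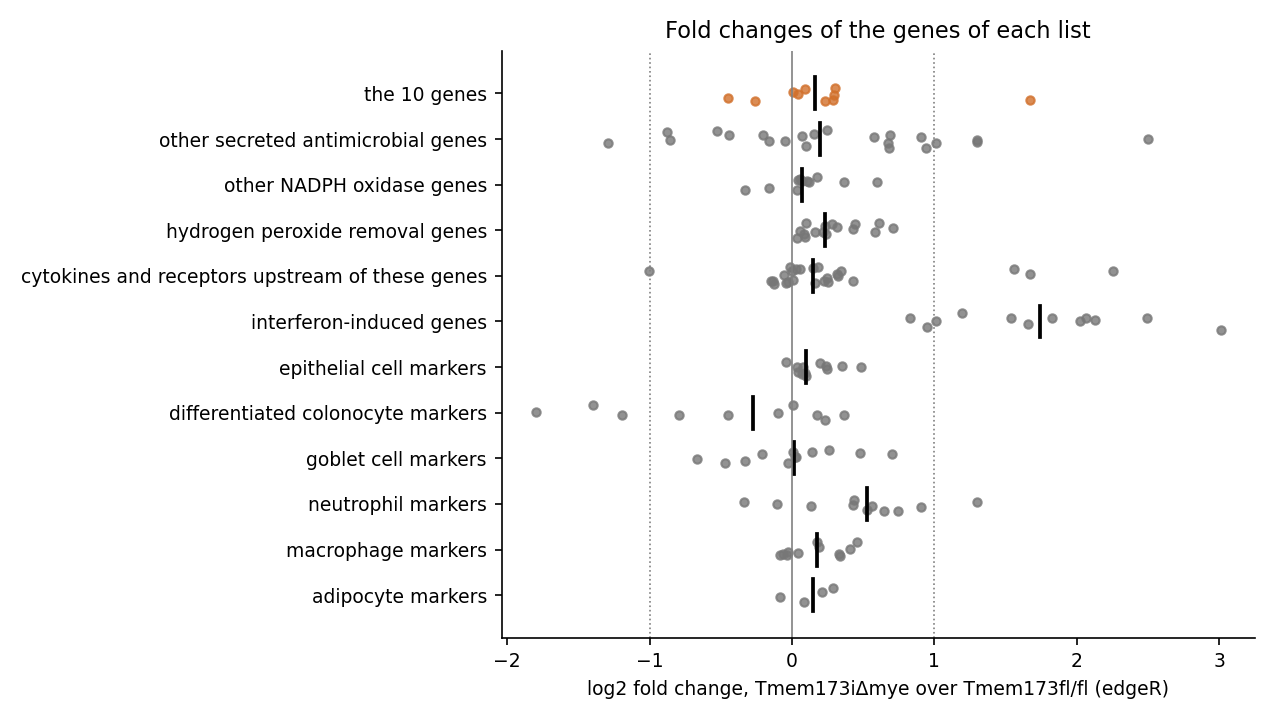
Log2 fold changes, Tmem173iΔmye over Tmem173fl/fl (edgeR), of the tested genes of each list (points) with the list's median (black bar); the 10 genes are in orange and dotted lines mark log2 fold changes of -1 and 1. The interferon-induced genes have a median of 1.74, the 10 genes one of 0.16, and 9 of the 10 genes lie between -0.45 and 0.30.

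Of the 12 epithelial markers, 11 were above 0 (median 0.096) and 0 passed the limits. Vil1, of the brush border, was at a log2 fold change of 0.35 (SE 0.15), Epcam at 0.24 (SE 0.18) and Cldn7 at 0.25 (SE 0.20). Of 10 differentiated colonocyte markers tested, 4 were above 0 and 6 below, with a median of -0.28, which ran from -0.61 to -0.051 with a tumor left out. None passed the limits, and 4 did, as lower, without Tmem173fl/fl tumor 2. Cyp2c55 was at 32.4, 2.48 and 45.7 FPKM in Tmem173fl/fl and 10.1, 5.95 and 7.20 FPKM in Tmem173iΔmye tumors, and Slc26a3, the chloride exchanger, at 9.98, 0.420 and 18.7 FPKM against 3.30, 3.47 and 4.30 FPKM. Ceacam1 was at 214 to 237 FPKM in Tmem173fl/fl and at 249 to 277 FPKM in Tmem173iΔmye tumors, without overlap (log2 fold change 0.23, SE 0.15, adjusted p = 0.753 in edgeR). Tmem173fl/fl tumor 2, which held the lowest level of 4 of the 10 genes, was also the lowest in Cyp2c55, in Slc26a3, in the summed colonocyte markers (1940 CPM) and in the summed goblet cell markers (2137 CPM, against 2765 to 5511 CPM in the other tumors). Ceacam1, at 19169 to 25500 counts per tumor, was the largest part of the colonocyte sum. By FPKM it was lowest in Tmem173fl/fl tumor 3 (213.8, against 220.7 in Tmem173fl/fl tumor 2). The part of epithelial cells, differentiated colonocytes and goblet cells in the values of the 10 genes was not tested.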

How the data were processed

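Polyadenylated RNA of 6 whole tumors (3 Tmem173fl/fl, 3 Tmem173iΔmye) had been sequenced. The deposited table holds, for each gene, read counts that are not normalized and FPKM values, both made by the authors. The submitters' processing notes name CASAVA 1.8, fastp, HISAT2 2.0.5, featureCounts 1.5.0-p3 and DESeq2 1.20.0, with build GRCm38. The deposited FPKM equal counts divided by gene length, median-of-ratios size factors and the geometric mean of the totals (largest relative difference 4.96e-07). The table also holds the authors' own fold changes and p-values of this comparison, which were not used.

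The quasi-likelihood test of edgeR 4.0.16, run in R 4.3.3, was applied to the counts with TMM scaling and genotype as its term. Benjamini-Hochberg adjustment covered 16426 genes whose mean FPKM was 0.5 or higher. SE was taken as the size of the log2 fold change over the root of the F statistic. CPM were made with TMM library sizes. Fits were tested on simulated data. Alternatives were DESeq2 1.42.0, limma 3.58.1 on log2(FPKM + 1) and log2(FPKM + 0.1), other scalings, other filters, the replicate number as a block, Y-linked reads as a covariate and leaving out each tumor. Distances between patterns are root mean square differences of log2(CPM + 1), centred on each gene's mean.

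The 10 genes, the 11 other lists and the tests were chosen with earlier results of these data known. Besides the 10 genes, the text names by rule every gene of a list past the study's limits, up to 3 of each list with the lowest p-values, and the gene nearest in pattern to each of the 10. Other markers, overlapping genes and copies were named after their values were seen. Of 183 genes in the lists, 1 was not found. Totals of 15329810 to 16533732 counts per tumor leave genes of 3 counts or fewer without a usable fold change, which covers counting error alone. Sequences are from RefSeq (GRCm38.p6), and all 10 genes had an entry. Untranslated regions are those of GENCODE on GRCm38.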

Additional observations from a re-analysis of the deposited data

How the results depend on the processing

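No gene of the 10 had an adjusted p under 0.05 under any of the 16 alternatives. The 349 genes past the study's limits became 872 without a filter, 131 with limma on log2(FPKM + 1) and 211 with Y-linked reads as covariate, and 218 to 636 with a tumor left out. The 0 genes with an adjusted p under 0.05 in edgeR (1008 at an unadjusted p under 0.05) became 6 without a filter and 28 with DESeq2, and 0 to 1 with a tumor left out. Of the 10 genes, the 1 past the limits (Saa3) became 0 under both limma fits, 2 with the covariate (Reg3b and Reg3g), and 0 to 1 with a tumor left out: 0 without Tmem173iΔmye tumor 1 or Tmem173fl/fl tumor 2, and Saa1 in place of Saa3 without Tmem173fl/fl tumor 1. The median of the 10 genes ran from 0.025 to 0.48 with a tumor left out and was -0.039 with the covariate.

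The sign turned for Ang4 with limma at either pseudocount (-0.017 and -0.018), with the covariate (-0.26) and with the replicate block (-0.016). It turned with the covariate for Lcn2 (-0.027), Duox2 (-0.051) and Saa1 (-0.056), and for Duox2 with library sizes without the 20 highest genes (-0.014). With a tumor left out, log2 fold changes ran from -0.95 to 1.05 for Reg3b, -1.60 to 0.57 for Reg3g, -0.40 to 1.11 for Saa1, -0.67 to 0.52 for Ang4, -0.19 to 0.17 for Duox2 and -0.58 to 0.75 for Nox1. The causes were not tested.

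The replicate numbers were not taken as pairing the tumors, since the deviations of same-numbered tumors correlated at 0.315, 0.00846 and 0.154 and not every tumor correlated best with its own number. With the replicate block, 377 genes passed the limits, 0 had an adjusted p under 0.05, and 1 of the 10 genes passed. Of 192 list medians recomputed, 4 moved by more than the spread between tumors, all without Tmem173iΔmye tumor 1. The lowest count among the 10 genes was 120 (Reg3b), and counting error was small beside the spread between tumors.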
